A study of Mus musculus with 6 samples.

Results

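Serpins are serine protease inhibitors, and the peaks described here are the FXR ChIP-seq peaks of mouse liver that were assigned to a gene whose symbol starts with Serpin. Each peak had been assigned by the authors to the gene with the nearest transcription start site (TSS), and the rule uses gene names alone, although the gene family was picked with earlier results of these data known. Of 20040 peaks listed for control liver, 64 carried such a gene name, and of 12495 peaks listed for liver without hepatocyte Bcl6, 31 did. They belonged to 31 of the 69 Serpin genes of the RefSeq mouse annotation, of which 63 were protein-coding and 6 were pseudogenes. All 31 genes had a peak in control liver and 17 of them also had one in the Bcl6-deleted liver. Of the 63 protein-coding Serpin genes, 30 had a control peak and 17 a peak after Bcl6 deletion. Over all 21900 protein-coding genes, the shares with a peak were 35.1% and 26.8%.

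FXR, a nuclear receptor for bile acids, pairs with RXR and binds DNA at inverted repeats of a hexamer spaced by a single base (IR1). BCL6 is a transcriptional repressor of hepatocytes and lymphocytes. All mice were C57BL/6 males in which both Bcl6 alleles carried loxP sites. Bcl6fl/fl mice had no other change and are the control, written WT. Bcl6LKO mice (Alb-cre, Bcl6 fl/fl), written LKO, also carried Cre driven by the albumin promoter, which deletes Bcl6 in hepatocytes and leaves it in the other cells of the liver. No age or treatment was given for these livers. For FXR ChIP, 2 libraries were made per genotype beside 1 of input chromatin, and the comparison asks whether FXR sits at the same places when hepatocyte Bcl6 is lost. Nothing in the labels says outright that the libraries came from separate animals, so the spread between them may be technical.

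Serpins trap their target protease by a change of shape that destroys it, and the liver secretes many of them into plasma. Clade A holds antitrypsin-like and antichymotrypsin-like inhibitors together with carriers of steroid and thyroid hormones. Clade B serpins mostly stay inside cells. Clades C, D, E, F and G mostly hold inhibitors of coagulation, fibrinolysis and complement, while clade H is a chaperone of collagen and clade I is best known from neurons. Mouse clade A and clade B genes lie in tandem arrays that grew by duplication, and some neighbouring copies are close to identical in sequence.

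The ChIP libraries held between 2883717 and 22637613 tags, and the smallest was WT replicate 2. The inputs held 6964271 and 6935001 tags. The deposited values of the libraries are headed as tag counts but include fractions and negative numbers, and they were read as log2 tags, which the headers do not state. All levels and estimated tags rest on this reading. The 2 tables were normalized apart from each other, so the median over all peaks shared by both lists was subtracted within each library. The result is called the relative level, in log2 units, and 0 marks the median shared peak. Tags per peak were estimated from the log2 values and the library totals. In WT replicate 2, the Serpin peaks rested on a median of 8.33 estimated tags, against 38.2 in WT replicate 1, and 20 of the 64 WT peaks had 10 tags or more in both libraries. All 31 LKO peaks did. None of the 64 WT or 31 LKO Serpin peaks had an input value above the 95th percentile of its list, where a count of 0 allows up to 4.69% and 9.68%. Those percentiles stood at only 2.61 (WT) and 2.30 (LKO) estimated input tags, and the Serpin medians at 0.54 and 0.41. Input this thin can show little at a single peak. Livers were homogenized whole, so fewer bound cells and less FXR bound per cell cannot be told apart.

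Sequences of the peaks on which the results turn are given first, from the GRCm38.p6 (mm10) assembly on the plus strand, read from left to right as 5′ to 3′. The motifs searched on both strands were AGGTCANTGACCT for IR1, with at most 2 mismatches among its 12 fixed bases, the single half-site AGGTCA without mismatch, and TTCNNNGAA, whose letters are shared by STAT5 and BCL6 sites. A half-site can lie inside an IR1 match. The first set holds the 3 WT Serpin peaks with an IR1 match of 1 mismatch, at chr12:103660479-103660689 upstream of Serpina6, chr12:103985801-103986011 at exon 2 of Serpina11, and chr16:17307554-17307764, assigned to Serpind1 but inside Pi4ka. Capitals mark the IR1 match.
Serpina6, 3366 bp upstream: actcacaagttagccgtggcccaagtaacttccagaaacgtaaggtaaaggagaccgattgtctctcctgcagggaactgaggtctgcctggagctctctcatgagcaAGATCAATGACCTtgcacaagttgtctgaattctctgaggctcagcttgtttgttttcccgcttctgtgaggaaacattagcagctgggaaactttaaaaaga
Serpina11, exon 2: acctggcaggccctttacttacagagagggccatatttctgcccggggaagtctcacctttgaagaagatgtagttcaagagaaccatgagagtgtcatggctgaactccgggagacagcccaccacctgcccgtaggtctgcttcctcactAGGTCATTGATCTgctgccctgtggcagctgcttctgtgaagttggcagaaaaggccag
Serpind1, 23712 bp upstream: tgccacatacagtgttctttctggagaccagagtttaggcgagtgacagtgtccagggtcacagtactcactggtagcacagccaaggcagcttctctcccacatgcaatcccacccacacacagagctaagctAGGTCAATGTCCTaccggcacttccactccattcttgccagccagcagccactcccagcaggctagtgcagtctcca

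The second set holds the shared peak of the Serpina cluster that was strongest in WT, at chr12:103665290-103665500, with its 2-mismatch IR1 in capitals, the 30 bases around the half-site of the strongest of all Serpin peaks, in Serpinc1 at chr1:160987403-160987432 with the half-site in capitals, and the strongest shared Serpinf2 peak at chr11:75443853-75444063, which holds none of the 3 motifs near its centre and no capitals. These show how unlike the sequences under strong Serpin peaks were.
Serpina6, 8177 bp upstream: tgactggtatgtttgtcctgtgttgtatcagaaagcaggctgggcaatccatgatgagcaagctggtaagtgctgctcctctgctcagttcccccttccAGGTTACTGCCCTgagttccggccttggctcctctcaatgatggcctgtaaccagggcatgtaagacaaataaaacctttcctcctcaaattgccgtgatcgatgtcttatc
Serpinc1, intron 1: tcatcagccttTGACCTcagccctcctctc
Serpinf2, 4457 bp upstream: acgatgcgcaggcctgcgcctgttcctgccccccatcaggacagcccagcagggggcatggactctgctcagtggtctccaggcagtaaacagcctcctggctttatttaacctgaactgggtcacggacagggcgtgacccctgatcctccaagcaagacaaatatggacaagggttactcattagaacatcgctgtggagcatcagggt

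Of the 3 Serpin arrays, 1 was rich in FXR peaks and the others had few or none. The array on chromosome 12, with 28 Serpina genes and pseudogenes between 103616675 and 104414334, drew 42 of the 64 WT peaks and 20 of the 31 LKO peaks, at 18 and 10 of its genes. The Serpinb array on chromosome 13, with 17 genes, had 3 WT peaks and no LKO peak. The Serpinb array on chromosome 1, with 12 genes, had none in either list. The remaining 12 Serpin genes, which lie outside these arrays, had 19 WT and 11 LKO peaks. Arrays were defined as at least 3 Serpin genes joined by gaps of up to 500 kb.

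The chromosome 12 array spans 798 kb, and 41 WT and 19 LKO peaks had their centre inside it, every one of them assigned to a Serpin gene. That is 5.14 and 2.38 peaks per 100 kb. Of 3294 windows of the same length laid end to end over the autosomes and chromosome X, the median window held 3 WT and 2 LKO peaks. At least as many WT peaks as in the array were found in 7 windows and at least as many LKO peaks in 56.

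**Figure D1:**
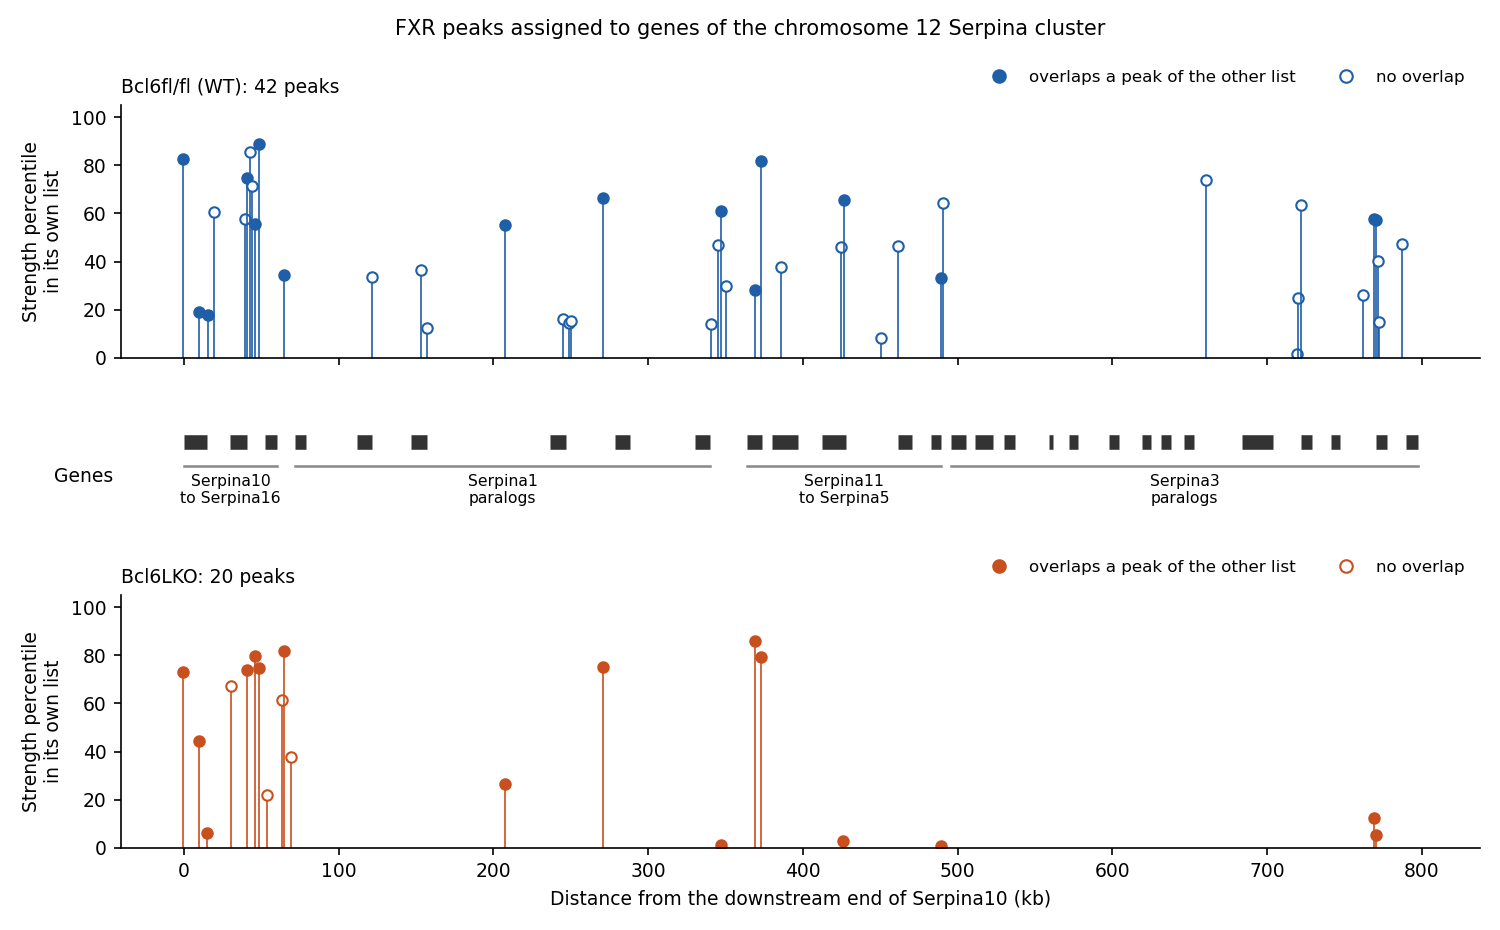
Peaks assigned to the 28 genes of the chromosome 12 Serpina cluster, by distance in kb from the downstream end of Serpina10 (x axis) and by percentile of strength within their own list (y axis), for WT (top, 42 peaks) and LKO (bottom, 20 peaks). Black bars are genes, grey lines the 4 stretches described in the text, and filled points overlap a peak of the other list. LKO peaks are crowded into the stretch from Serpina10 to Serpina16, while WT peaks run along the whole array.

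By clade, 45 WT peaks and 21 LKO peaks belonged to clade A, where 19 of 29 genes had a WT peak and 11 an LKO peak. In clade B, 3 of 29 genes had a WT peak and none had an LKO peak. The 3 were Serpinb1a, an inhibitor of neutrophil proteases, with relative levels of -0.68 and -0.65 in the 2 WT libraries, Serpinb6b with -0.13 and -0.94, and Serpinb9, an inhibitor of granzyme B, with -1.30 and -1.01. All 3 lay below the median shared peak in both libraries. Among all WT peaks, Serpinb1a stood at percentile 50.6, Serpinb6b at 55.7 and Serpinb9 at 31.3. Serpinb6b was the strongest peak of clade B. The nearest LKO peak, assigned to Wrnip1, was 145100 bp away from it and 180015 bp from the Serpinb9 peak. It lay only 2593 bp from the Serpinb1a peak, which is itself 23863 bp from the Serpinb1a start site.

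The genes of the other clades, all outside the arrays, included most of the plasma inhibitors of clotting and fibrinolysis. Serpinc1 (antithrombin, the main inhibitor of thrombin and factor Xa) had 4 WT and 2 LKO peaks, Serpind1 (heparin cofactor II) 3 and 2, and Serpinf2 (antiplasmin) 2 and 2. Serpinf1 (pigment epithelium-derived factor), Serpine2 (a cell-surface inhibitor of thrombin) and Serping1 (C1 inhibitor of complement) had 1 WT peak each and none in LKO. Serpinh1, the collagen chaperone, and Serpini1, neuroserpin, had 1 peak in each list. Serpina6, which encodes the corticosteroid-binding globulin, had the most WT peaks of any Serpin gene (6), followed by Serpina3m (5) and by Serpina10, Serpina1a, Serpina1e and Serpinc1 (4 each). In LKO the first places went to Serpina16 and Serpina6, with 4 peaks each, and Serpina10, with 3.

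**Figure D2:**
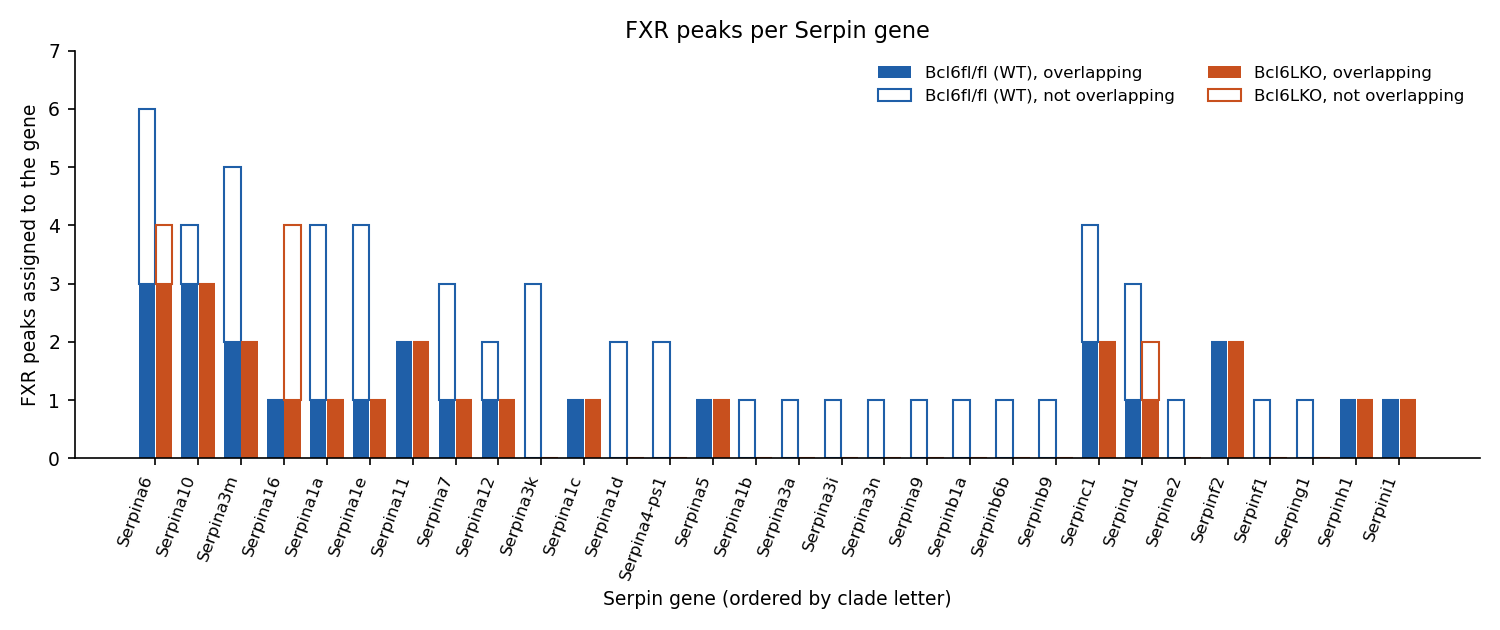
Number of FXR peaks (y axis) assigned to each Serpin gene described in the text (x axis, in order of clade letter) in WT (blue) and LKO (orange). Filled bars are peaks that overlap a peak of the other list by 1 bp or more and open bars those that do not. Serpina16 is the one gene with more LKO than WT peaks.

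The 2 lists shared 25 Serpin positions, and each shared pair carried the same gene name in both. Seen from the WT list these were 25 of 64 (39.1%, with a 95% Wilson interval from 28.1% to 51.3%), where the share over the whole list was 49.5%. Seen from the LKO list they were 25 of 31 (80.6%, 63.7% to 90.8%), where the share over the whole list was 79.4%. The background share of the WT list lay inside the interval of the Serpin peaks, as did that of the LKO list. Intervals here cover counting error only. Centres of paired peaks were a median of 28 bp and at most 94 bp apart. Of the 39 WT peaks without an LKO partner, 17 had no LKO peak within 20 kb and 15 had an LKO peak within 5 kb. Of the 6 LKO peaks without a WT partner, none was more than 20 kb from a WT peak, and the farthest lay 8665 bp away. These distances were not computed for the unshared peaks of other genes, and the WT list is the longer one. No trait of Serpin peaks is read from them.

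Sharing along the array is set beside the share of 49.5% over the whole WT list. In the stretch from Serpina10 to Serpina16, 7 of 11 WT peaks had an LKO partner (63.6%, 35.4% to 84.8%), and so did 4 of 8 between Serpina11 and Serpina5 (50%, 21.5% to 78.5%). Among the Serpina1 paralogs, 3 of 12 were shared (25.0%, 8.89% to 53.2%), and among the Serpina3 paralogs 2 of 11 (18.2%, 5.14% to 47.7%). The intervals overlap, and all but that of the Serpina3 paralogs, which ended just below it, include the whole-list share. The stretches were drawn after the values were seen, so no difference between them was tested. The stretch from Serpina10 to Serpina16 held as many LKO peaks as WT peaks, 11 of each. Of its 11 LKO peaks, 7 were shared (63.6%, 35.4% to 84.8%), against 79.4% of the whole LKO list, which lay inside the interval. Its other 4 were among the 6 LKO Serpin peaks without a WT partner.

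Among the 3 genes of that stretch, Serpina6 had 3 shared peaks. The strongest of them in WT, 8177 bp upstream, had relative levels of 0.47 and 1.27 in WT and 0.62 and 0.35 in LKO, with the LKO values inside or just below the WT range. The promoter peak, 38 bp upstream of the start site, had 0.28 and -0.11 in WT and 0.75 and 0.17 in LKO. Genotypes overlapped at both. At the peak 5090 bp upstream the WT values were -0.28 and -0.78 and the LKO values 0.73 and 0.69, so that both LKO libraries lay above both WT libraries, and in LKO this was the strongest of the 3.

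The other 3 WT peaks of Serpina6 had no LKO partner. The peak 2176 bp upstream was the strongest unshared Serpin peak of either list, at 0.33 and 0.98, which placed it at percentile 85.5 of all WT peaks. The nearest LKO peak was 1993 bp off. The peak 3366 bp upstream, at 0.02 and -0.12, carried one of the 3 IR1 matches with 1 mismatch printed above, and the peak in intron 1, 1407 bp downstream, had -0.22 and -0.73. In return, LKO had a peak at exon 5 of Serpina6 that was absent from the WT list, at 0.40 and 0.06, the strongest of the unshared LKO peaks.

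Serpina10 encodes an inhibitor of factor Xa that works with protein Z. Its peak at the end of the gene had 0.66 and 0.27 in WT and 0.26 and 0.57 in LKO, and the genotypes overlapped. In intron 3 the WT values were -1.35 and -1.70 and the LKO values -0.31 and -0.33, a difference of 1.2 with a pooled SD of 0.18. The second WT value rested on 4.27 estimated tags. At the promoter, 386 bp upstream, WT had -1.40 and -1.71 and LKO -0.92 and -1.31. LKO lay above WT at both of these, by little at the promoter. The remaining WT peak, 4553 bp upstream at -0.65 and -0.15, had no LKO partner.

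Serpina16 had 1 WT peak and 4 LKO peaks. At the shared peak, 4689 bp upstream, WT had -0.56 and -1.58 and LKO 0.67 and 0.96, a difference of 1.89 with a pooled SD of 0.53. The second WT value rested on 4.65 estimated tags. Of 9918 shared pairs in the whole data set, 60 (0.605%) had a larger difference. The 3 LKO peaks without a WT partner lay 3351 bp and 8822 bp upstream and in intron 4, with relative levels of 0.13 and 0.00, -0.49 and -0.43, and -1.17 and -0.42. Upstream of Serpina16 the LKO list thus held 3 peaks and the WT list 1.

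The unshared LKO peak 3351 bp upstream of Serpina16 and the shared peak 5090 bp upstream of Serpina6 are copies of each other. Their sequences, shown here because 1 copy had a peak in both genotypes and the other in LKO only, differed at 5 of 205 bases without a gap (97.6% identity), and both copies hold 1 exact half-site. With 500 bp added on either side identity was still 92.4%, and with 2000 bp it had dropped to 62.7%. The authors kept reads that aligned to a single place, and what part that played in calling a peak at either copy was not tested. The copies lie at chr12:103680011-103680215 and chr12:103662203-103662407, and capitals mark the bases at which they differ.
Serpina16 copy: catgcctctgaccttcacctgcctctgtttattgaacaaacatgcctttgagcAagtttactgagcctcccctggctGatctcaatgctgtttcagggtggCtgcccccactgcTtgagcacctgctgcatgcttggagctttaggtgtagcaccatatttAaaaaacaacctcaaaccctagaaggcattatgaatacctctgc
Serpina6 copy: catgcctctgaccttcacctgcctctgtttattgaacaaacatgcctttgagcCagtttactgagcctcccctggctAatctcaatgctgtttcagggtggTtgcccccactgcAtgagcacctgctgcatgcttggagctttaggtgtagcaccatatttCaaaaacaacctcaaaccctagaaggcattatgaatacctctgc

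The Serpina1 paralogs encode antitrypsin, which shields tissue from neutrophil elastase. Mouse has a row of copies, and the 5 named Serpina1a to Serpina1e all had a WT peak, 12 in sum, against 3 LKO peaks, all shared. Promoter peaks were listed for Serpina1b at -1.0 and -1.19, Serpina1d at -1.94 and -1.49, and Serpina1e at -1.87 and -1.48, in WT only. All 3 lay below the median shared peak, and 2 of them rested on under 5 estimated tags in WT replicate 2. Serpina1a and Serpina1c had no promoter peak in either list.

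The promoters of the 5 paralogs are nearly the same sequence, and for this reason a stretch that all of them hold is printed from the RefSeq promoter table (GRCm38.p6), on the strand of the genes. It was taken as bases 100 to 15 before the Serpina1b start site and matched in the other 4 promoters, all on chromosome 12, where capitals mark bases that differ from Serpina1b. The labels say whether the gene had a promoter peak, and not that the peak covered the stretch.
Serpina1b, with a WT peak: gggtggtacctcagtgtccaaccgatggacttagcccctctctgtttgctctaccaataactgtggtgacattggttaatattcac
Serpina1d, with a WT peak: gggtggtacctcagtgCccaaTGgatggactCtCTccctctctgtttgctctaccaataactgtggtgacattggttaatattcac
Serpina1e, with a WT peak: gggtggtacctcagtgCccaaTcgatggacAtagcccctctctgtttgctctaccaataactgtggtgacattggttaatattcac
Serpina1a, without: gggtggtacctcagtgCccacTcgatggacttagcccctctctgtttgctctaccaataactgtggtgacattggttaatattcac
Serpina1c, without: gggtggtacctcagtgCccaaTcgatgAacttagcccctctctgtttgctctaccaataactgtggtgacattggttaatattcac

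Against Serpina1b, this stretch of 86 bases differed at 3 positions each in Serpina1a, Serpina1c and Serpina1e and at 7 in Serpina1d, and it holds no AGGTCA half-site in any of the 5. The 3 genes with a promoter peak were not those with the closest sequences, since Serpina1a and Serpina1c differed from each other at only 2 bases and from Serpina1e at 2 each. The WT peak centres lay 83 bp (Serpina1b), 52 bp (Serpina1d) and 174 bp (Serpina1e) upstream of the middle of the stretch, so the peaks did not sit on 1 common base. The Serpina1d peak covered its whole stretch and the Serpina1b peak only part of it. The Serpina1e peak, which starts at 103957075, covered none of its stretch, which ends at 103957049.

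Over the Serpina1 array, 9 of 12 WT peaks and 2 of 3 LKO peaks matched another Serpin locus at 90% identity or more. The shared peak assigned to Serpina1a, 39554 bp beyond its start site, was 98.1% identical to a sequence at Serpina1b and stood at -0.53 and -0.58 in WT and -0.89 and -0.46 in LKO. The shared peak assigned to Serpina1c, 17466 bp beyond its start site, had -0.41 and -0.04 in WT and 0.70 and 0.30 in LKO. Genotypes overlapped at the first and not at the second. Upstream of Serpina1e, in sequence without a close copy, the shared peak 6616 bp away went the other way, with -0.29 and -0.49 in WT and -1.62 and -1.02 in LKO.

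Taking all Serpin peaks, 15 WT and 6 LKO peaks had a match of 90% or more elsewhere among the Serpin loci. Of these, 5 of 15 WT peaks had an LKO partner (33.3%, 15.2% to 58.3%), against 20 of 49 WT peaks in less alike sequence (40.8%, 28.2% to 54.8%). For LKO the counts were 5 of 6 and 20 of 25. The median level was lower at the duplicated than at the other peaks in WT (-1.09 against -0.77) and higher in LKO (-0.31 against -0.46). A tag that fits 2 copies equally is lost when unique alignments are kept, so levels in duplicated sequence are uncertain, and the size of that loss was not tested.

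From Serpina11 to Serpina5 the shared peaks went both ways. At exon 2 of Serpina11 the WT libraries had -1.10 and -1.42 and the LKO libraries 1.21 and 0.93. The difference of 2.32, with a pooled SD of 0.21, was the largest of the Serpin pairs, and 19 of 9918 pairs in the whole data set exceeded it. The value of WT replicate 2 rested on 5.20 estimated tags. Exon 2 is a coding exon, and the peak holds the 1-mismatch IR1, a half-site and TTCNNNGAA. In intron 1 of the same gene the values were 0.01 and 0.84 in WT and 0.46 and 0.92 in LKO, and they overlapped. In intron 1 of Serpina12, which encodes vaspin, the peak 1440 bp from the start site showed the lowest LKO level relative to WT, with 0.10 and -0.60 in WT and -1.35 and -1.08 in LKO, a difference of -0.96 with a pooled SD of 0.38. At the end of Serpina5 (protein C inhibitor), WT had -1.25 and -0.96 and LKO -0.93 and -1.85.

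WT peaks without a partner in this stretch were found in Serpina9, in Serpina12 and at the pseudogene Serpina4-ps1, which had 2. The promoter-proximal of these, 154 bp inside Serpina4-ps1, had -1.07 and -0.47 and an IR1 match of 2 mismatches.

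The Serpina3 paralogs, 14 genes related to antichymotrypsin, an acute-phase inhibitor of cathepsin G, had WT peaks at 5 genes and LKO peaks at 1, Serpina3m. At its promoter, 96 bp inside the gene, WT had -0.63 and -0.34 and LKO -1.11 and -1.15, so LKO lay below WT. At the peak 1051 bp upstream, WT had -0.69 and -0.26 and LKO -0.58 and -1.40, and the ranges overlapped. Serpina3k, whose peaks matched Serpina3m at up to 93.8%, had 3 WT peaks and no LKO peak, with -0.63 and 0.00 at the one 104 bp inside the gene. Serpina3i had a single WT peak 14331 bp beyond its start site at 0.42 and -0.33, among the 5 strongest unshared WT peaks, with the nearest LKO peak 108441 bp away. Serpina3n, 2502 bp upstream, had -0.76 and -0.74. The WT peak assigned to Serpina3a lies at the end of Serpina5, 768 bp from the LKO peak there.

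Outside the arrays, Serpinc1 held the strongest Serpin peak of both lists. It lies in intron 1, 8791 bp from the start site, and overlaps an exon outside the coding sequence. It had relative levels of 2.23 and 2.40 in WT and 2.51 and 2.59 in LKO, at percentiles 98.3 and 97.9 of all peaks, on 299.5 and 73.3 estimated tags in the WT libraries and 236 and 232 in the LKO libraries, with 0.733 and 1.43 in the inputs. LKO lay above WT by 0.24, with a pooled SD of 0.09. The Serpinc1 promoter peak, 306 bp upstream, moved the other way, at 0.32 and -0.11 in WT and -0.21 and -0.72 in LKO. A pair of WT peaks in intron 1, 1546 bp and 2479 bp in, had no LKO partner. The strong Serpinc1 peak had no IR1 match within 2 mismatches, and the best one had 4.

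Serpind1 had a promoter peak in WT only, 42 bp upstream, at -0.67 and -0.61. The gene lies between peaks annotated to Pi4ka, a lipid kinase, and thus within the span of Pi4ka, as does this promoter peak. The other peaks assigned to Serpind1 were all annotated to introns or exons of Pi4ka. Of these, the peak 23712 bp upstream of Serpind1 was shared and had -0.73 and -0.97 in WT and 0.04 and 0.39 in LKO, a difference of 1.07 with a pooled SD of 0.21. The other WT peak, in intron 19 of Pi4ka, had -0.65 and -0.92, and an LKO peak in exon 18 of Pi4ka, 5004 bp from it, had -0.46 and -0.40. For the peaks annotated to Pi4ka the assigned gene rests on distance to a start site alone.

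The genotypes overlapped at both peaks of Serpinf2. Its peak 4457 bp upstream, in intron 9 of Wdr81, had 0.24 and 0.43 in WT and 0.48 and 0.29 in LKO, and its promoter peak, 88 bp upstream, had -0.56 and -0.79 in WT and -1.10 and -0.62 in LKO.

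Serping1 had 1 weak WT peak in intron 1, 513 bp inside the gene, at -1.01 and -2.39, and 2.65 estimated tags lay behind the second value. Serpinh1, 4212 bp upstream, had -1.65 and -2.05 in WT and -1.17 and -0.57 in LKO. At Serpini1, where the deposited annotation places the peak in the promoter of Pdcd10, WT had -0.28 and 0.19 and LKO -0.36 and -0.64. The genotypes did not overlap at either, with LKO above at Serpinh1 and below at Serpini1. On chromosome X, Serpina7, which encodes thyroxine-binding globulin, had 3 WT peaks, all over 10 kb beyond its start site. The strongest of them, at 17384 bp, had -0.30 and 0.65 and no LKO partner, and the shared one, at 46951 bp, had -1.33 and -2.02 in WT and -0.98 and -1.32 in LKO.

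Over the 25 shared pairs, both LKO values lay above both WT values at 10 and below them at 5. In the whole data set these shares were 29.8% and 25.2% of 9918 pairs. The difference was within the pooled SD of the replicates at 8 pairs, higher in LKO by more than that at 11 and lower at 6, where 33.7% and 29.4% of all shared pairs passed the same rule. The median over the pairs was 0.21, against 0.03 over all shared pairs, and it lay between 0.11 and 0.17 with any 1 of the 4 ChIP libraries left out, lowest without LKO replicate 1. Without centring each library it was -0.12 for the Serpin pairs and -0.30 for all pairs, so its sign rests on the scale. Centring shifts every pair by the same amount, so it could not have changed the place of the Serpin median relative to all pairs. No test between the genotypes was run, as the tables had been normalized separately.

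The 3 pairs with the highest LKO level relative to WT were the exon of Serpina11, Serpina16 and the Serpina6 copy, all inside the array. The 3 lowest were Serpina12, Serpina1e and the Serpina3m promoter, also inside it. In the stretch from Serpina10 to Serpina16, LKO was higher by more than the pooled SD at 5 of 7 pairs and lower at none, beside 33.7% and 29.4% over all shared pairs. These extremes were picked by their values and are given as a description. Both shared Serpin peaks with a 1-mismatch IR1, at Serpina11 and at Serpind1, were among those higher in LKO. Over the whole data set the median difference was 0.32 at the 365 pairs with at most 1 mismatch and 0.01 at the 9553 others.

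**Figure D3:**
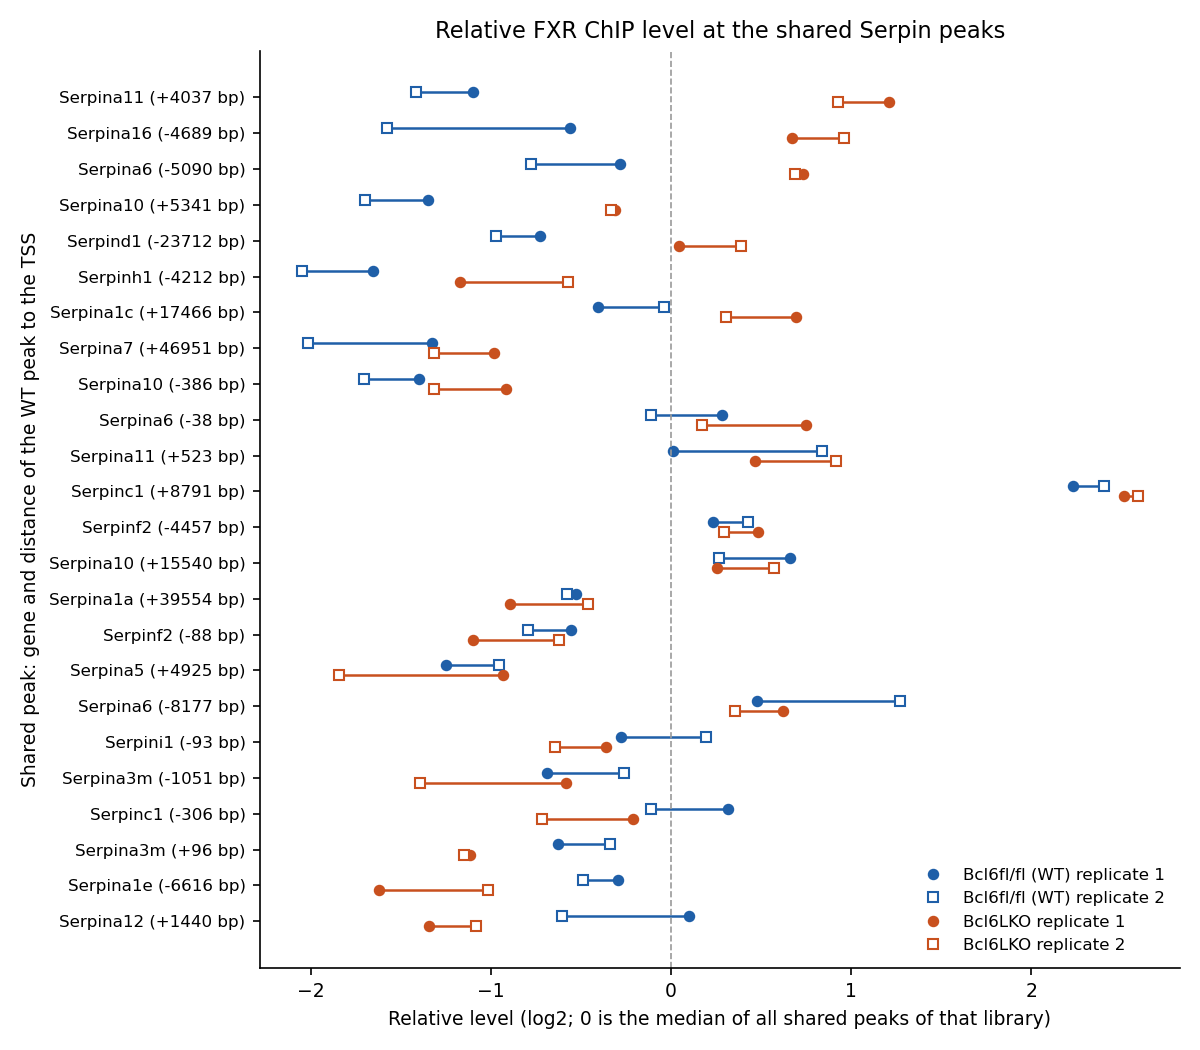
Relative level (x axis, log2, where 0 is the median of all shared peaks in that library) of the shared Serpin peaks described in the text (y axis, gene and distance of the WT peak to its start site in bp), in order of the LKO minus WT difference. Circles are replicate 1, squares replicate 2, and lines join the 2 libraries of WT (blue) or LKO (orange). The 3 uppermost peaks, from Serpina11 to Serpina6, have both LKO points far to the right of both WT points, and Serpinc1 in intron 1 stands apart from all others in both genotypes.

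Serpin peaks were of middling strength. Their median log2 level was 4.49 in WT against 4.59 for the whole list, and 4.48 in LKO against 4.75. At or above the median of their list were 28 of 64 WT peaks and 13 of 31 LKO peaks. Shared WT peaks had a median relative level of -0.48 and unshared ones of -0.99, while in LKO the medians were -0.46 and -0.45.

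They lay closer to start sites than FXR peaks at large. In WT, 16 of 64 Serpin peaks (25.0%) were within 1 kb of the assigned start site, against 16.7% of all WT peaks. A further 35 (54.7%) lay between 1 and 10 kb away, against 26.2%, and 13 (20.3%, 12.3% to 31.7%) were farther off, against 57.1% of all WT peaks. In LKO, 7 of 31 were farther than 10 kb (22.6%, 11.4% to 39.8%), against 57.6%. Genes stand densely in the arrays, which bounds the distance to the nearest start site there, and what part this has in the shares was not tested. By the authors' annotation, promoters held 11 WT Serpin peaks (17.2%, 9.88% to 28.2%), against 11.4% of the list, and 7 in LKO (22.6%, 11.4% to 39.8%), against 11.3%. Introns held 20 Serpin peaks in WT (31.2%, 21.2% to 43.4%), against 46.5% of the list, and 7 in LKO (22.6%, 11.4% to 39.8%), against 47.4%. Intergenic sequence held 28 in WT and 12 in LKO (43.8% and 38.7%), against 35.3% and 34.3%. Bases of a coding exon were covered by 3 of the 6 unshared LKO peaks, those at Serpina6, Serpina16 and Pi4ka, by 1 of the 39 unshared WT peaks and by 3 of the 25 shared ones. Over the whole data set this held for 7.92% of unshared LKO peaks, 7.25% of unshared WT peaks and 7.81% of shared WT peaks. The Serpin counts are small, and no test was run.

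An IR1 match within 100 bp of the peak centre was present in 10 of 64 peaks in WT (15.6%, 8.71% to 26.4%) and in 5 of 31 in LKO (16.1%, 7.09% to 32.6%). The shares of the whole lists were 11.8% and 16.2%, inside both intervals. No Serpin peak had an exact match, which 46 of all WT peaks and 36 of all LKO peaks had. Of the 10 WT matches, 7 were in the chromosome 12 array, which held 42 of the 64 WT Serpin peaks. Of those 7, 4 were at Serpina10 and Serpina6, which had 4 and 6 WT peaks. The half-site was found in 26 WT and 11 LKO Serpin peaks, against background shares of 40.3% and 41.3%, and TTCNNNGAA in 5 and 3, against 6.56% and 6.39%. All of these were near the background, and a match describes letters and no binding site.

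**Figure D4:**
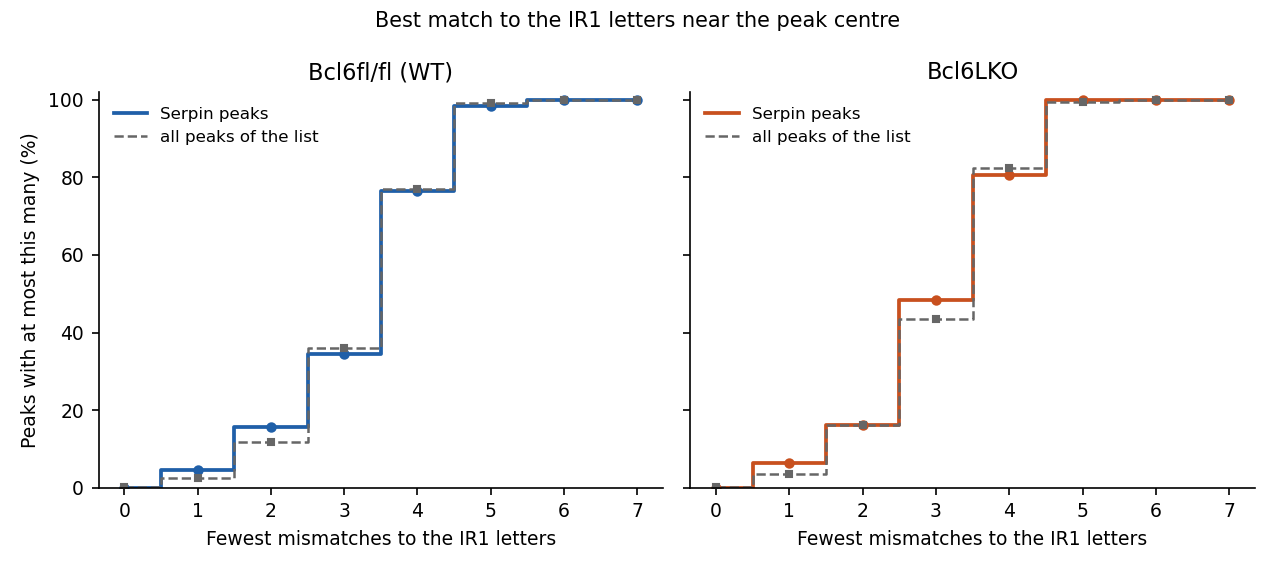
Share of peaks (y axis, %) whose best match to the IR1 letters near the centre had at most the number of mismatches on the x axis, for Serpin peaks (coloured) and all peaks of the same list (grey, dashed), in WT (left) and LKO (right). The curves run close together, with 15.6% of WT and 16.1% of LKO Serpin peaks at 2 mismatches or fewer.

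The proteases that serpins inhibit, and inhibitors of other families, were read from the same lists. For comparison, 35.1% of all protein-coding genes had a WT peak and 26.8% an LKO peak. Over the whole lists 49.5% of WT peaks and 79.4% of LKO peaks were shared. Of 20 target protease genes, 15 had a WT and 11 an LKO peak, with 14 of 32 WT peaks and 14 of 15 LKO peaks shared. No difference from the whole lists was tested for these genes or for the other inhibitors. F10, the clotting factor X, had a shared peak at 1.36 and 1.19 in WT and 1.27 and 0.85 in LKO. Factor XI, the product of F11, had 5 WT peaks and no LKO peak, and F12 had 1 and none. F2 (prothrombin) had 0.23 and 0.19 at its strongest WT peak and -1.29 and -0.02 at its LKO peak. Of 22 genes for other inhibitors, 17 had a WT and 16 an LKO peak, with 27 of 44 WT peaks and 27 of 29 LKO peaks shared. Ambp (the precursor of bikunin) stood at 1.89 and 1.86 in WT and 1.47 and 1.73 in LKO at its strongest peaks, and all 5 WT peaks of Ahsg, which encodes fetuin-A, had LKO partners. Within its own list, each of Ambp, Itih3 and Hrg had a stronger peak than any Serpin gene but Serpinc1. Genes of these lists without a peak in either genotype were among others F9, Plat, Plau, Tfpi and Spink1.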

How the data were processed

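Per the labels, the study's methods and the submitters' processing notes, the authors aligned reads to mm10 with Bowtie 1.2, kept uniquely aligned reads and built HOMER 4.10 tag directories that count a position once. Peaks were called on pooled replicates of a genotype against input and filtered by the authors' own test of ChIP over input. The deposited library values, headed as tag counts, were not whole and some were negative. They were read as regularized log2 tags that the authors computed separately for each table. The deposited Peak Score is a signal of the pooled libraries, scaled by the authors. Columns of fold changes and p-values, which hold the authors' comparison of ChIP with input, were not used.

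Members, gene lists, the stretches of the array and the copied sequences were chosen with earlier results of these data known. All 6 samples were grouped by their labels, and 0 value columns were left unmapped. No test was run between genotypes, since the tables share no scale. Peaks of 211 bp (WT) and 205 bp (LKO) were called shared at an overlap of 1 bp. Shares carry Wilson intervals over peaks, which are not replicates, and were set beside the whole list. Motifs were searched within 100 bp of the centre. Identity to other Serpin loci was searched with edlib 1.3.9.post1 up to 50 kb around each Serpin gene. Distances lay within 2 bp of RefSeq for 59 of 64 WT and 29 of 31 LKO peaks. Named peaks were the strongest of each clade, the 10 strongest WT peaks, the 5 strongest unshared peaks of each list, the genes with most peaks (3, with ties), the 3 highest and 3 lowest pairs, peaks next to the start sites of the Serpina1 paralogs, Serpinc1, Serping1 and Serpinf2, and IR1 matches with at most 1 mismatch. Other peaks named in the text were added to describe further genes. Peaks of 1 gene enter the counts and are not reported here. Overlap and motif code was tested on simulated data. Alternatives covered peak strength, tags, overlap, motif, promoter definition, centring and leaving out libraries. Sequences were read with pysam 0.24.0, tables with pandas 2.3.3 and numpy 2.4.6, intervals computed with scipy 1.17.1 and plots drawn with matplotlib 3.10.9, all under Python 3.11.15.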

Additional observations from a re-analysis of the deposited data

How the results depend on the processing

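Keeping peaks at or above the median strength of their list left 28 WT and 13 LKO Serpin peaks, and asking for 10 estimated tags in both libraries left 20 WT peaks, since both rules remove weak or thinly covered peaks. With strong peaks alone in both lists, 61.5% of LKO Serpin peaks were shared (8 of 13) in place of 80.6%. With at most 1 mismatch, 4.69% of WT and 6.45% of LKO Serpin peaks held an IR1 match. The median strength relative to the list was -0.14 in WT and -0.19 in LKO by the log2 Peak Score, and it ran from -0.11 to -0.069 in WT and from -0.25 to -0.19 in LKO with 1 library left out, below 0 throughout. Without centring, the median LKO minus WT level at shared pairs turned from 0.21 to -0.12, where the median over all pairs was -0.30. The other 18 alternatives of the summary results moved their value by less than its error or, for counts, by less than 1.5 times, and they include the rules for overlap, the whole peak as motif window and a promoter within 1 kb. Leaving out 1 library turned the sign at 6 named pairs, all within the pooled SD. No paired analysis was possible because the labels number the libraries within each genotype and state no pairing across genotypes. The 2 tables were also normalized separately and no test between genotypes was run, so a replicate block was not fitted. The smallest ChIP library, WT replicate 2, rested on a median of 8.33 estimated tags per Serpin peak. What part depth had in the WT list was not tested.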
